A study of Homo sapiens with 12 samples.

Results

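Several entries of the human miRNA catalogue are short, very rich in G and C, and resemble pieces of ribosomal RNA or of its precursor. The 9 names described here are hsa-miR-3960, hsa-miR-3648, hsa-miR-4488, hsa-miR-4497, hsa-miR-4516, hsa-miR-663a, hsa-miR-7704 and both arms of miR-10400, hsa-miR-10400-5p and hsa-miR-10400-3p. They were chosen by name, with earlier results of these data known. All 9 had counts in each of 12 small RNA libraries, out of 2656 names listed. The libraries came from AC16, an established human line derived from ventricular cardiomyocytes, and from exosomes isolated from AC16 cultures. The 4 groups, with 3 libraries each, were Ang exosomes, Con exosomes, Ang cells and Con cells, and the study set out to find miRNAs of hypertrophic cardiomyocyte exosomes. In the headers of the deposited tables Ang is written AngII. The sources used here do not spell out the agent, its dose and time, or the handling of Con. All 4 groups share the AC16 line. No source tells if replicates of a group were cultured separately, so each p-value speaks of the spread among these libraries, which may be technical. RNA of cells was purified with the miRNeasy Micro kit and RNA of exosomes with the exoRNeasy Maxi kit, so effects of compartment and of kit cannot be told apart.

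A miRNA is cut from a hairpin transcript by the nuclease complexes of Drosha and Dicer, and its seed, the stretch next to the 5′ end, pairs with target transcripts. Ribosomal RNA is transcribed in the nucleolus as a long precursor whose external and internal spacers are cut away to release the mature rRNAs, and these are the most abundant RNAs of a cell. Fragments of them are common in small RNA libraries and can be counted under a miRNA name when their letters match. What the reads counted under the 9 names came from was not tested, since the files hold counts and no reads.

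The mature sequences of 6 members are shown because their composition and their seeds are what joins and what separates them. They are from RefSeq on GRCh38.p14, written 5′ to 3′, with the seed, bases 2 to 8, in capitals.
miR-3648: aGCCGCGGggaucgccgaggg
miR-4488: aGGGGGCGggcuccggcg
miR-4497: cUCCGGGAcggcugggc
miR-4516: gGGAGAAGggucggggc
miR-663a: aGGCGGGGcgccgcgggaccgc
miR-7704: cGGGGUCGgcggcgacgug
The share of G plus C was 81.0% in miR-3648, 88.9% in miR-4488, 82.4% in miR-4497, 76.5% in miR-4516, 90.9% in miR-663a and 84.2% in miR-7704. The median over the 2367 listed names with a mature sequence was 52.2%, and 3.21% of them reached 80%. miR-663a was richer in G and C than 99.5% of those names, and miR-4516, the least rich of the 6, than 95.8%. The members were also short, between 17 and 22 bases, where the median name had 22. No mature sequence is shown for miR-3960 or for either arm of miR-10400.

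The 6 seeds all differed, and the members shared letters only in short stretches. The longest shared stretch was the 8 bases GCCGCGGG of miR-3648 and miR-663a, followed by the 7 bases GGGUCGG of miR-4516 and miR-7704. Every other pair shared between 4 and 6 bases in a row. Some listed names outside the members carry the same seed. miR-1237-5p has that of miR-4488, miR-4434 and miR-5703 have that of miR-4516, and miR-10396b-5p, miR-1908-5p and miR-6787-5p have that of miR-663a.

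The hairpins lie in different kinds of sequence. One of the copies of the miR-3648 hairpin, MIR3648-1, lies inside an annotated ribosomal precursor on chromosome 21, from 8208473 to 8208652. It starts 2485 bases after the start of the unit RNA45SN2 and ends 979 bases before the 18S rRNA, in the external spacer that is cut away during rRNA processing. It was the only member hairpin inside an rRNA of the RefSeq annotation. The mature miR-3648 sequence is placed at chr21:8987026-8987046 on the plus strand, in the other copy, MIR3648-2, which overlaps no annotated gene. Counts of miR-3648 cannot be divided between the copies, since both hairpins hold the same mature sequence.

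The other hairpins overlap protein-coding genes, lncRNA genes or no gene. MIR3960, on chromosome 9 from 127785833 to 127785923, lies in a coding exon of CDK9, the kinase that releases paused RNA polymerase, and overlaps the hairpin of miR-2861. In mouse osteoblasts the pair has been described as promoting bone cell differentiation. The mature miR-4488 lies at chr11:61508599-61508616 on the plus strand, in no annotated gene. miR-4497 lies at chr12:109833350-109833366 on the plus strand, across from an untranslated exon of the cation channel gene TRPV4. miR-4516 lies at chr16:2133120-2133136 on the plus strand, across from an intron of the polycystin gene PKD1. miR-663a lies at chr20:26208243-26208264 on the minus strand, in an exon of its lncRNA host MIR663AHG, and has been described as a repressor of the AP-1 factors JunB and JunD in monocytes. miR-7704 lies at chr2:176188843-176188861 on the plus strand, in a coding exon of the homeobox gene HOXD1 and across from an exon of the lncRNA HAGLR. The miR-10400 hairpin, on chromosome 8 from 144462485 to 144462539, overlaps a coding exon of CYHR1.

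The label of ribosomal resemblance could be checked only in part. Letters of 5S and 5.8S rRNA, of both mitochondrial rRNAs and of 923 bases of 18S rRNA were at hand, whereas 28S rRNA and the spacers of the precursor were not used here. None of the 6 sequences matched these letters in full on either strand. The best ungapped alignment matched 13 of 21 bases for miR-3648, 11 of 18 for miR-4488, 12 of 17 for miR-4497 and miR-4516, 13 of 22 for miR-663a and 12 of 19 for miR-7704. Apart from miR-3648, whose place in the annotated precursor bears on the label directly, the data at hand bear on the members' composition more than on a ribosomal source. That composition was measured in the mature sequence of 6 members and, for miR-3960, in its hairpin, with 87.9% G plus C.

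Library totals ran from 697049 to 1022550 UMIs in Ang exosomes, from 888518 to 1029883 in Con exosomes, from 413513 to 512840 in Ang cells and from 424041 to 528844 in Con cells. Values are given as CPM, counts scaled by the library total, and 3 counts equalled 2.91 to 7.25 CPM depending on the library. All members stood above it in every library, and the lowest, miR-4497 in cells, had 16 to 25 counts per library. Con exosomes replicate 1 stood apart from its group, its counts differing from those of the other replicates by 6.57 and 10.6 in chi-square divided by degrees of freedom, against 1.91 between those replicates, and so did Ang cells replicate 2, with 4 and 4.37 against 1.99. Cardiac muscle miRNAs, 6 names such as miR-1-3p and miR-208a-3p, none of them at 0 throughout, summed to 54.3 to 70.4 CPM in Ang exosomes, 73.2 to 89.6 in Con exosomes, 273 to 310 in Ang cells and 333 to 369 in Con cells. Blood cell miRNAs summed to 346 to 636 CPM in Ang exosomes and 551 to 1270 in Con exosomes, highest in replicate 3, and these ranges overlap. In cells they summed to 2030 to 6800 CPM in Ang, highest in replicate 2, and 2120 to 2360 in Con. None of the 6 blood cell names was at 0 throughout, and their part in the members' results was not tested.

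Taken as a sum, the 9 names held a smaller share of Ang exosomes than of Con exosomes. They made up 3.42%, 3.49% and 3.51% of UMIs in Ang exosomes and 5.59%, 5.70% and 5.71% in Con exosomes. In cells they made up 3.65%, 3.15% and 3.33% in Ang and 3.40%, 3.41% and 3.34% in Con, so that the cell groups overlapped while the exosome groups did not. In bulk libraries such as these, fewer vesicles or cells with an RNA and less of it in each cannot be told apart. The share averaged 3.47% ± 0.045 in Ang exosomes, 5.67% ± 0.065 in Con exosomes, 3.38% ± 0.25 in Ang cells and 3.38% ± 0.04 in Con cells (SD, n = 3 each). A share of all UMIs also depends on the other names. The pair miR-552-3p and miR-3972 held 29.1% in Ang exosomes and 17.2% in Con exosomes, which leaves less for every other name in Ang. The bars of each library show that different names made up the sum in exosomes and in cells.

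**Figure D1:**
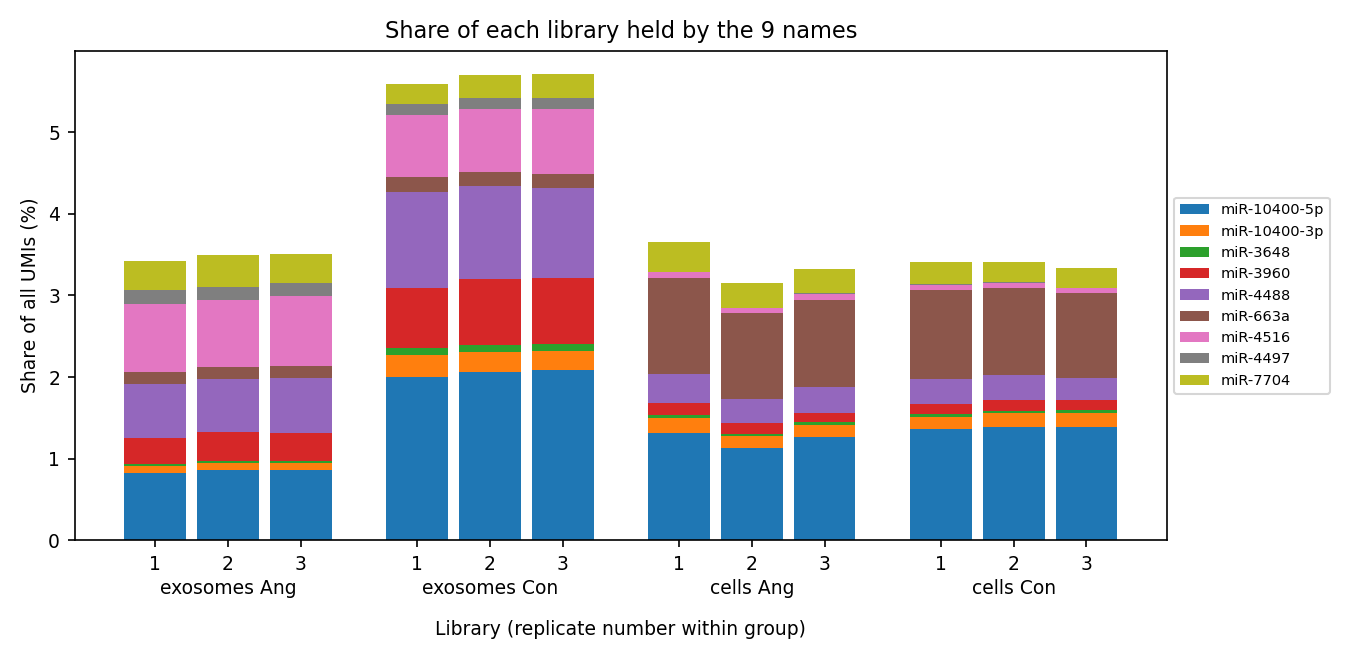
Share of all UMIs (vertical axis, percent) held by each of the 9 names in each library (horizontal axis, replicate numbers within the 4 groups). The 3 Con exosome bars reach 5.59% to 5.71%, and the other 9 bars 3.15% to 3.65%; miR-663a forms a wide block in cells and a thin one in exosomes.

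In exosomes, the compartment the study asked about, Ang was set against Con. The members moved apart from one another. miR-10400-5p, miR-10400-3p, miR-3648 and miR-3960 fell by a factor between 2.09 and 2.64, and miR-4488 fell 1.54-fold. miR-7704, miR-4497 and miR-4516 rose between 1.22-fold and 1.52-fold. Thus 8 of 9 members passed an adjusted p of 0.05, with 3 higher and 5 lower in Ang, where 34.0% of the 1199 names tested passed, 16.9% higher and 17.1% lower. The members were chosen with earlier results known, and names of like abundance were not set beside them, so these counts are a description. The median log2 change was -0.62 over the 9 members and -0.05 over all names tested.

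The miR-10400 hairpin gave the most abundant member and the deepest fall. hsa-miR-10400-5p had 8205, 8558 and 8605 CPM in Ang exosomes, against 20050, 20620 and 20850 in Con exosomes. All Ang libraries lay far below all Con libraries, and the name went down the ranks, at place 19 to 21 of its library in Ang and at place 9 to 10 in Con. It was 2.16-fold lower on the TMM scale, which sets the bulk of names level between libraries (log2 -1.11, SE 0.0488, adjusted p = 4.03e-07). hsa-miR-10400-3p, the opposite arm, had 839.3, 853.3 and 870.4 CPM in Ang exosomes, against 2685, 2492 and 2390 in Con exosomes. Its groups did not overlap either, and it was 2.64-fold lower in Ang (log2 -1.40, SE 0.0762, adjusted p = 1.56e-06), the 16th largest of the 1199 log2 changes in size.

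hsa-miR-3648, with its copy in the ribosomal precursor, had 314.2, 317.5 and 289.5 CPM in Ang exosomes, against 834.1, 827.2 and 786.6 in Con exosomes. It was the least abundant member in exosomes, and its groups did not overlap. The fall was 2.37-fold (log2 -1.25, SE 0.0836, adjusted p = 3.12e-06). hsa-miR-3960 had 3158, 3535 and 3327 CPM in Ang exosomes, against 7391, 8048 and 8063 in Con exosomes, again with no overlap. It fell 2.09-fold (log2 -1.06, SE 0.0543, adjusted p = 1.01e-06). hsa-miR-4488 had 6611, 6474 and 6765 CPM in Ang exosomes, against 11650, 11390 and 11120 in Con exosomes. Its fall of 1.54-fold was smaller than those of the other members that fell (log2 -0.62, SE 0.0598, adjusted p = 3.95e-05), and its groups did not overlap.

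The 3 members that rose did so less steeply. hsa-miR-7704 had 3638, 3885 and 3531 CPM in Ang exosomes, against 2491, 2790 and 2913 in Con exosomes. Every Ang library lay above every Con library, and the rise was 1.52-fold (log2 0.60, SE 0.0586, adjusted p = 4.28e-05). hsa-miR-4497 had 1613, 1545 and 1612 CPM in Ang exosomes, against 1297, 1325 and 1326 in Con exosomes, and rose 1.35-fold (log2 0.44, SE 0.058, adjusted p = 0.000269). hsa-miR-4516, described as a repressor of STAT3 in keratinocytes, had 8415, 8265 and 8636 CPM in Ang exosomes, against 7684, 7723 and 7959 in Con exosomes. Its groups lay close together but did not overlap, and it rose 1.22-fold on the TMM scale (log2 0.28, SE 0.0508, adjusted p = 0.00189).

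hsa-miR-663a was the one member without a call. It had 1450, 1469 and 1466 CPM in Ang exosomes, against 1836, 1759 and 1697 in Con exosomes. In CPM its groups did not overlap, while on the TMM scale its log2 change of -0.11 did not pass (SE 0.0667, 95% interval -0.26 to 0.04, adjusted p = 0.25). With library totals in place of TMM it passed (log2 -0.27, adjusted p = 0.0012). CPM groups were apart for all 9 members, 3 higher and 6 lower, and for 52.4% of all names tested, 16.1% higher and 36.3% lower.

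The scale matters here, since library totals moved the median of all names by -0.16 on the log2 scale relative to TMM. In these libraries 2 other names, miR-552-3p and miR-3972, together held 29.1% ± 0.088 of UMIs in Ang exosomes and 17.2% ± 0.18 in Con exosomes (SD, n = 3 each). The part of this pair in that shift was not tested. The 8 calls kept their direction and passed under all 15 alternatives, which included library totals, the table without that pair of names, and each of the 6 libraries left out in turn, so also without Con exosomes replicate 1.

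**Figure D2:**
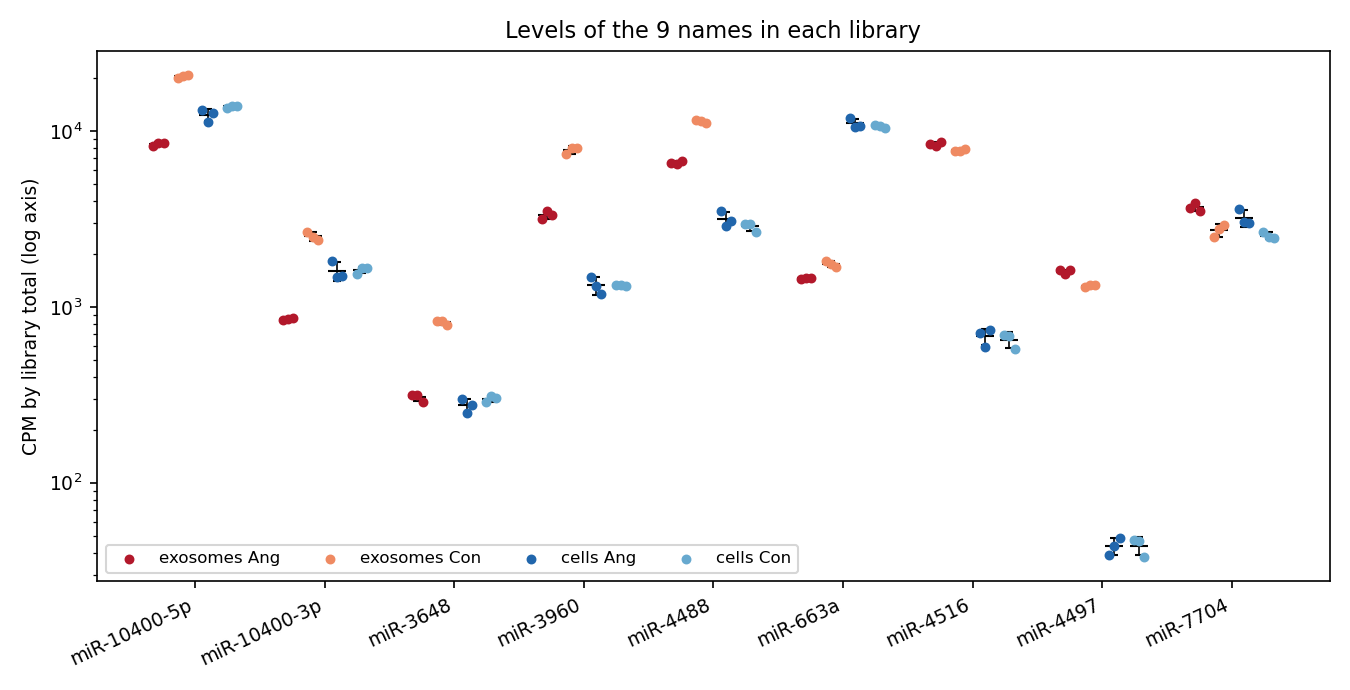
CPM by library total (vertical log axis) of each member (horizontal axis), with 1 point per library, a dash and bar for the mean and SD of 3 libraries, and colours for the 4 groups. Ang exosomes lie below Con exosomes for 6 names and above them for miR-4516, miR-4497 and miR-7704, while in cells Ang and Con overlap for 7 names.

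Ratios of raw counts within a library do not depend on any scaling, and they show the members moving in subsets. These ratios were picked after the values had been seen, and no test was run on them. miR-4516 had 2.67, 2.34 and 2.60 counts per count of miR-3960 in Ang exosomes, against 1.04, 0.96 and 0.987 in Con exosomes, so the order of this pair was different in Ang from a near tie in Con. miR-3960 per count of miR-10400-5p stood at 0.385, 0.413 and 0.387 in Ang exosomes, against 0.369, 0.390 and 0.387 in Con exosomes. These ranges overlap, so this pair, from different chromosomes, fell by similar factors.

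The arms of miR-10400, which come from 1 hairpin, kept a less even ratio. There were on average 9.90 ± 0.13 counts of the 5p arm per count of the 3p arm in Ang exosomes, with 9.78 as the lowest library, against 7.47, 8.27 and 8.72 in Con exosomes. The Ang libraries were all above the Con libraries. In cells the ratio was 7.19, 7.64 and 8.47 in Ang and 8.79, 8.38 and 8.38 in Con, and the groups overlapped.

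A name from another ribosomal precursor unit and one whose hairpin overlaps that of a member were set beside those members; the log2 changes were not tested against each other. MIR10396B lies in the external spacer of another annotated precursor unit, RNA45SN1, 3102 bases after its start. miR-10396b-5p had 355.3 ± 18.9 CPM in Ang exosomes and 445.6 ± 18 in Con exosomes and did not pass (log2 -0.16, SE 0.0871, adjusted p = 0.186). Its opposite arm, miR-10396b-3p, did not pass either (log2 0.02, SE 0.0726, adjusted p = 0.877). miR-3648 accordingly had 0.940, 0.856 and 0.802 counts per count of miR-10396b-5p in Ang exosomes, against 1.84, 1.80 and 1.85 in Con exosomes, with no overlap. miR-2861, whose hairpin overlaps that of miR-3960, fell 1.35-fold (log2 -0.43, SE 0.0884, adjusted p = 0.00377), to 751.2 ± 58.3 CPM in Ang exosomes against 1136 ± 55.9 in Con exosomes. There were 4.05, 5.17 and 4.22 counts of miR-3960 per count of miR-2861 in Ang exosomes, against 6.18, 7.12 and 7.44 in Con exosomes, and the ranges did not overlap.

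Names that carry a member's seed varied too. miR-5703, with the seed of miR-4516, fell 1.43-fold in Ang exosomes (log2 -0.51, SE 0.0707, adjusted p = 0.000345) while miR-4516 rose. miR-1237-5p, with the seed of miR-4488, had 13410 ± 435 CPM in Ang exosomes and 16560 ± 432 in Con exosomes and did not pass (log2 -0.14, SE 0.0593, adjusted p = 0.0979). None of the 3 names with the seed of miR-663a passed, with log2 changes between -0.16 and 0.04. miR-4434 was too low in exosomes to be tested.

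Other GC-rich or ribosome-like names were called in 6 of 22 cases, where 34.0% of all names tested were called. Of a list of 29 such names, 25 were in the tables and 22 were tested in exosomes, where 1 was higher and 5 were lower in Ang, or 4.55% and 22.7% beside 16.9% and 17.1% of all names, with a median log2 change of -0.02. The one that rose was miR-4449 (log2 0.48, SE 0.0726, adjusted p = 0.000652), at 739.4 ± 43.4 CPM in Ang exosomes and 596.5 ± 28.7 in Con exosomes. The largest fall was that of miR-3196 (log2 -0.62, SE 0.0903, adjusted p = 0.000488), followed by miR-2861 and by miR-3178 (log2 -0.41, SE 0.0768, adjusted p = 0.0023). With library totals 1 of the 22 was higher and 12 were lower, where 151 of the 1199 names were higher and 319 lower. Of all 75 tested names with at least 80% G plus C, 19 were higher and 21 lower, or 25.3% and 28%, both above the shares of all names, while the median of -0.05 equalled that of all names to 2 decimals. With library totals 15 of the 75 were higher and 33 lower.

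In cells, Ang and Con differed for 1 member. miR-7704 had 3631, 3033 and 3001 CPM in Ang cells, against 2681, 2496 and 2455 in Con cells. Every Ang library was above every Con library, with Ang replicate 1 highest, and the rise was 1.25-fold (log2 0.33, SE 0.0783, adjusted p = 0.019). This is 1 of 9 members, where 6.56% of the 1630 names tested passed, 2.76% higher and 3.80% lower. The call ended without Ang replicate 1 (adjusted p = 0.116), without Con replicate 2 (adjusted p = 0.137) or 3 (adjusted p = 0.157), and in a fit of all 12 libraries (adjusted p = 0.101). It held without Ang cells replicate 2, the library that stands apart.

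The members that fell in Ang exosomes were close in Ang and Con cells. miR-10400-5p had 13190, 11340 and 12680 CPM in Ang cells, against 13590, 13920 and 13940 in Con cells. All Ang libraries were lower, but the change did not pass (log2 -0.17, SE 0.061, 95% interval -0.30 to -0.04, adjusted p = 0.121). It and miR-7704 were the 2 members whose CPM groups lay apart in cells, 1 higher and 1 lower, as did those of 22.4% of all names tested, 12.5% higher and 9.94% lower. miR-10400-3p averaged 1606 ± 198 CPM in Ang cells and 1623 ± 66.4 in Con cells (log2 -0.03, SE 0.0836, adjusted p = 0.915). miR-3648 had 299.7, 249.1 and 276.9 CPM in Ang cells, against 289.3, 312.0 and 301.9 in Con cells, which overlap (log2 -0.14, 95% interval -0.38 to 0.10, adjusted p = 0.558). miR-3960 had 1490, 1320 and 1182 CPM in Ang cells, against 1329, 1337 and 1314 in Con cells (log2 -0.01, 95% interval -0.19 to 0.17, adjusted p = 0.976). Its Ang libraries spread to both sides of the tight Con group. miR-4488 averaged 3151 ± 318 CPM in Ang cells and 2876 ± 168 in Con cells (log2 0.12, SE 0.0753, adjusted p = 0.447).

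The other members of the cell comparison overlapped as well. miR-663a averaged 11070 ± 681 CPM in Ang cells and 10660 ± 233 in Con cells (log2 0.04, 95% interval -0.09 to 0.17, adjusted p = 0.802). miR-4516 averaged 679.1 ± 74.3 CPM in Ang cells and 651.9 ± 64.6 in Con cells (log2 0.04, SE 0.102, adjusted p = 0.892). miR-4497 averaged 43.67 ± 5.01 CPM in Ang cells and 43.84 ± 5.3 in Con cells. With 16 to 25 counts a library its interval was the widest, from -0.52 to 0.47 in log2 (adjusted p = 0.976). Of the related names, 1 of 22 tested passed in cells, miR-3178, which was lower (log2 -0.34, SE 0.08, adjusted p = 0.0164).

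**Figure D3:**
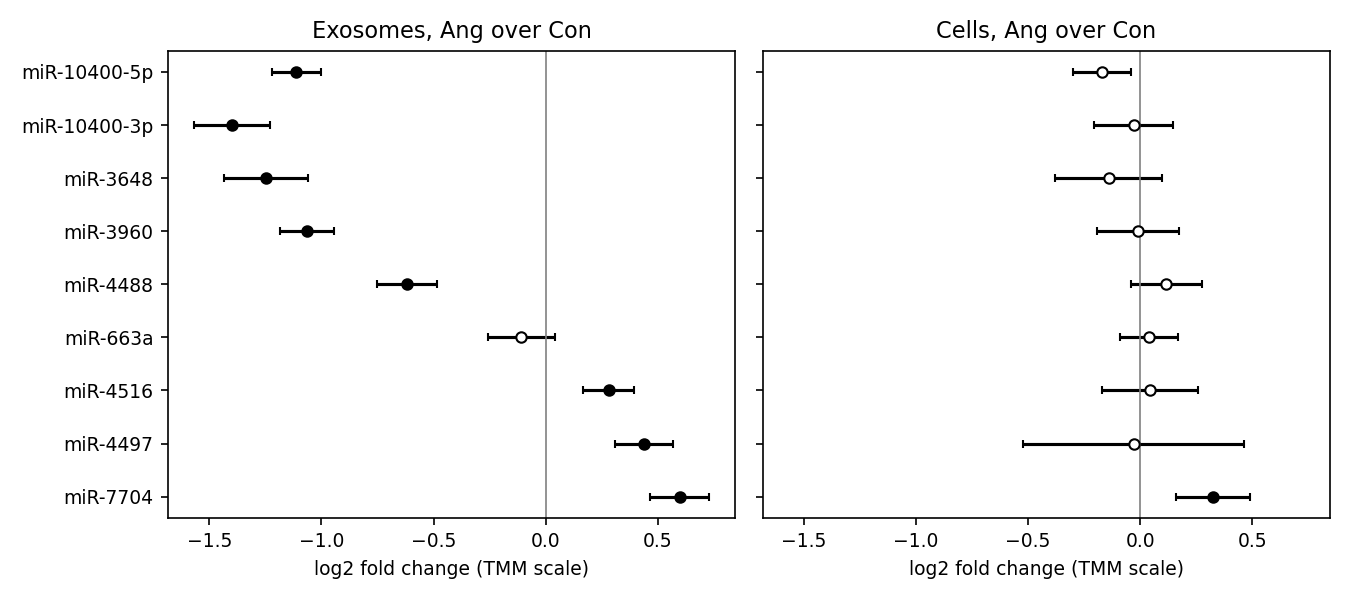
log2 fold change of Ang over Con on the TMM scale (horizontal axis) for each member (vertical axis), in exosomes on the left and in cells on the right, with bars for 95% intervals and filled points for an adjusted p under 0.05. In exosomes 5 members lie below 0 and 3 above it with filled points, and in cells miR-7704 alone is filled.

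The difference between the exosome change and the cell change was then tested itself, as an interaction over all 12 libraries. It passed for 7 of 9 members, 2 higher and 5 lower, where 15.1% of 1835 names passed, 9.97% higher and 5.18% lower. Of the related names, 4 of 23 tested were higher and 0 lower. Of the 74 names with at least 80% G plus C, 20 were higher and 5 lower. With library totals these became 0 and 5 of the 23, and 8 and 22 of the 74. On that scale 93 of all 1835 names were higher and 222 lower. The 5 members with a negative difference were the names that fell in Ang exosomes. The difference was -1.23 in log2 for miR-10400-3p (SE 0.129, adjusted p = 4.67e-06), -0.97 for miR-3648, -0.92 for miR-3960, -0.80 for miR-10400-5p and -0.60 for miR-4488 (SE 0.115, adjusted p = 0.00139). These 5 passed under all 20 alternatives. The positive differences of miR-7704 (log2 0.41, SE 0.126, adjusted p = 0.0361) and miR-4516 (log2 0.38, SE 0.121, adjusted p = 0.0436) were less firm. With library totals they came to 0.09 for miR-7704 (adjusted p = 0.691) and 0.05 for miR-4516 (adjusted p = 0.82). miR-4497 (log2 0.61, SE 0.175, adjusted p = 0.0945) and miR-663a (log2 -0.01, SE 0.101, adjusted p = 0.986) did not pass. For miR-4497 this SE, which is computed from the F statistic, is smaller than its p-value implies and may understate the error.

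Exosomes were compared with cells within Ang and within Con. These comparisons share their libraries with those of Ang and Con. On the TMM scale 8 of 9 members were higher in exosomes in both, and miR-663a was lower. In Ang 83.3% of the 1627 names tested passed, 38.2% higher and 45.1% lower in exosomes, and in Con 83.3% of 1710, 39.2% higher and 44.2% lower. The scale decides much of this: library totals moved the median of all names by -1.89 in Ang and -1.52 in Con relative to TMM, so all values below are relative to the bulk of names unless given in CPM.

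miR-4497 and miR-4516 stood farthest towards exosomes. miR-4497 was 134-fold higher in exosomes than in cells in Ang (log2 7.06, SE 0.119, adjusted p = 7.5e-18) and 84.6-fold in Con (log2 6.40, SE 0.104, adjusted p = 2.19e-12). In CPM it averaged 1590 ± 38.9 in Ang exosomes and 43.67 ± 5.01 in Ang cells, and 1316 ± 16.3 in Con exosomes and 43.84 ± 5.3 in Con cells. It was thus the rarest member in cells. In Con exosomes only miR-3648 was rarer, and in Ang exosomes miR-663a, miR-10400-3p and miR-3648 were. miR-4516 was 45.9-fold higher in exosomes in Ang (log2 5.52) and 34.1-fold in Con (log2 5.09), with 8439 ± 187 CPM in Ang exosomes and 679.1 ± 74.3 in Ang cells, and 7789 ± 149 in Con exosomes and 651.9 ± 64.6 in Con cells. Under library totals as well, both were higher in exosomes, by log2 5.16 and 3.62 in Ang and by 4.88 and 3.57 in Con.

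miR-3960 and miR-4488 followed. miR-3960 was 9.30-fold higher in exosomes in Ang (log2 3.22, SE 0.0964) and 16.9-fold in Con (log2 4.08, SE 0.0626). miR-4488 was 7.78-fold higher in exosomes in Ang (log2 2.96, SE 0.0936) and 11.3-fold in Con (log2 3.50, SE 0.0621). Both kept their calls under all 15 alternatives in Ang and in Con, and their CPM groups did not overlap.

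For miR-3648 in Ang, for miR-7704 in both and for the miR-10400 arms in Ang, the direction or the call rested on the scale. miR-3648 was 4.12-fold higher in exosomes in Ang (log2 2.04), yet its CPM ranges overlapped, 289.5 to 317.5 in Ang exosomes and 249.1 to 299.7 in Ang cells, and the call ended with library totals (log2 0.14, adjusted p = 0.261). In Con it was 7.74-fold higher in exosomes (log2 2.95, SE 0.0844, adjusted p = 1.29e-10), its CPM groups did not overlap, and the call held under all 15 alternatives. miR-7704 was 4.24-fold higher in exosomes in Ang and 3.07-fold in Con, and with library totals it came to log2 0.18 in Ang (adjusted p = 0.0598) and 0.09 in Con (adjusted p = 0.271). miR-10400-5p and miR-10400-3p were 2.53-fold and 1.97-fold higher in exosomes in Ang on the TMM scale. Their CPM was lower in Ang exosomes than in Ang cells in every library, and with library totals they were lower in exosomes, by log2 -0.57 (adjusted p = 6.92e-06) and -0.92 (adjusted p = 1.96e-07). In Con both arms were higher in exosomes on either scale, 4.24-fold and 4.44-fold with TMM. In CPM, groups lay apart in Ang for 7 of 9 members, 4 higher and 3 lower in exosomes, and for 91.0% of all names, 18.6% higher and 72.4% lower. In Con they lay apart for 8 of 9, 7 higher and 1 lower, and for 89.1% of all names, 21.0% higher and 68.1% lower.

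miR-663a went the other way. It had 1450, 1469 and 1466 CPM in Ang exosomes, against 11850, 10610 and 10750 in Ang cells. In Con it had 1836, 1759 and 1697 CPM in exosomes, against 10890, 10680 and 10420 in cells. It held place 11 or 12 among all names in every cell library and place 87 to 105 in exosomes. On the TMM scale it was 2.04-fold lower in exosomes in Ang (log2 -1.03, SE 0.0787, adjusted p = 1.81e-09) and 2.12-fold in Con (log2 -1.08, SE 0.0582, adjusted p = 2.19e-08), and it stayed lower under all 15 alternatives in each. Of the members' summed counts it made up 4.21% ± 0.03 in Ang exosomes, 3.11% ± 0.16 in Con exosomes, 32.8% ± 0.72 in Ang cells and 31.5% ± 0.42 in Con cells (SD, n = 3 each). miR-663a had 0.459, 0.416 and 0.441 counts per count of miR-3960 in Ang exosomes, against 7.95, 8.04 and 9.10 in Ang cells.

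Composition moved with this comparison over the tested names that had a mature sequence. A name could pass the count filter through 1 compartment alone. In Ang, the median log2 value of exosomes over cells was -2.60 over 193 names with under 40% G plus C and 2.16 over 74 names with at least 80%, and in Con it was -2.76 over 202 names and 1.97 over 74. Of the 74 names with at least 80% G plus C, 68 were higher in exosomes and 1 was lower, in Ang and in Con alike. That 1 name was miR-663a in both. miR-3648, miR-4488, miR-4497 and miR-7704 were among the 68, a side they shared with 64 names that are no members. With RLE size factors 2 of the 74 were lower in Ang and 1 in Con. With library totals 35 of the 74 were higher and 25 lower in Ang, where 294 of all 1627 names were higher and 1176 lower. In Con it was 42 higher and 19 lower, where 346 of all 1710 names were higher and 1156 lower. Of the related list, 22 of 22 tested were higher in Ang and 21 of 23 in Con. Kit and compartment cannot be told apart in this gradient either.

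**Figure D4:**
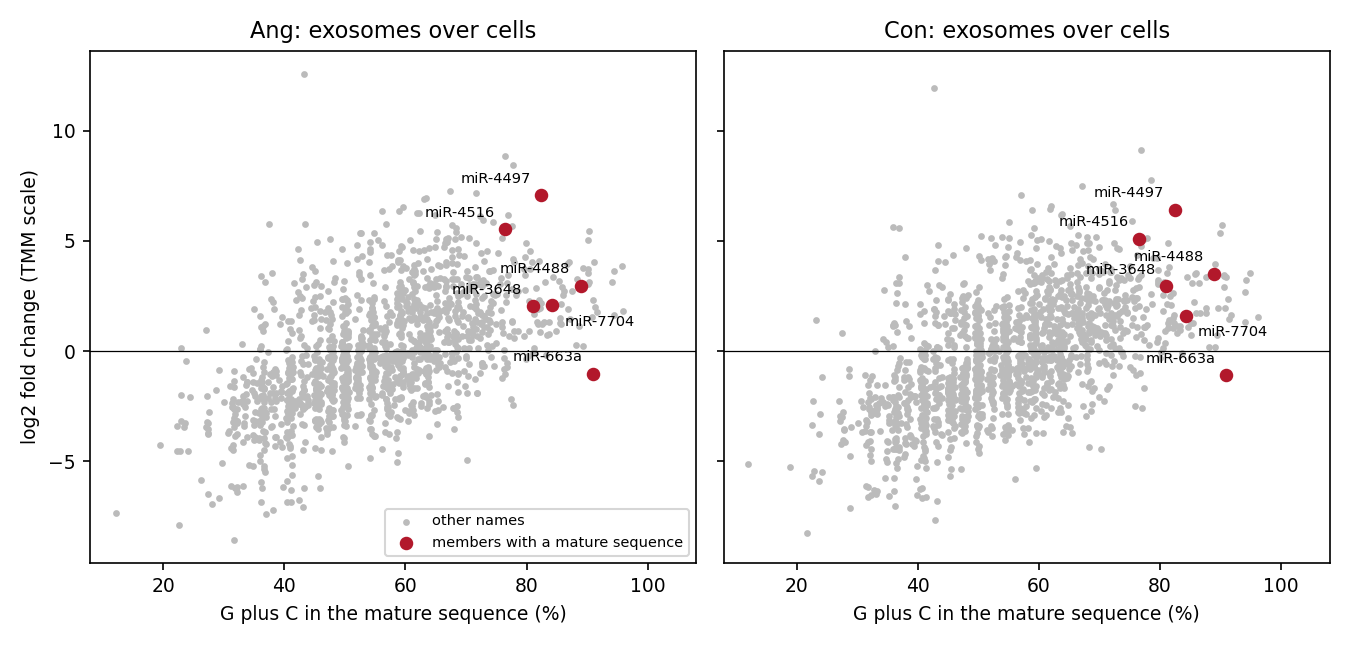
log2 fold change of exosomes over cells on the TMM scale (vertical axis) against the share of G plus C in the mature sequence (horizontal axis, percent), in Ang on the left and in Con on the right. Grey points are other tested names, spread slightly sideways to show overlaps, and red points are the 6 members with a mature sequence; the cloud climbs with G plus C, and miR-663a is the red point below 0 in both panels.

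The order of the members differed between compartments. In Con exosomes miR-10400-5p led with 20500 ± 412 CPM, then came miR-4488 with 11390 ± 269, and miR-3960 (7834 ± 384) and miR-4516 (7789 ± 149), which did not differ beyond their spread. In Ang exosomes miR-10400-5p (8456 ± 219) and miR-4516 (8439 ± 187) were level, ahead of miR-4488 with 6617 ± 146. miR-7704 (3685 ± 181) and miR-3960 (3340 ± 189) overlapped there by 1 library. In cells miR-10400-5p led with 12410 ± 956 CPM in Ang and 13820 ± 195 in Con, followed by miR-663a, and miR-4497 came last in both.

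The name with the highest mean, miR-10400-5p, was set against the 944 names with at least 10 CPM in every library. By Pearson's r of log2 TMM-scaled CPM over the 12 libraries, the 3 most like it were miR-3648 (0.995), miR-611 (0.995) and miR-887-3p (0.994). The other members came at 0.988 for miR-10400-3p (place 9 of 944), 0.975 for miR-3960 (place 20) and 0.956 for miR-4488 (place 50). Far behind came miR-4516 at 0.900 (place 247), miR-4497 at 0.896 (place 259), miR-7704 at 0.782 (place 481) and miR-663a at -0.902 (place 807). These coefficients are descriptions: the libraries fall into exosomes and cells, and all names share that split. miR-611 had 1295 ± 55.9 CPM in Ang exosomes, 2756 ± 48.1 in Con exosomes, 1821 ± 122 in Ang cells and 2174 ± 96.6 in Con cells.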

How the data were processed

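The deposited values are raw UMI counts per mature miRNA name, whole numbers without normalization, per the file headers. Per the labels' protocols, the library kit was QIAseq miRNA, whose unique molecular identifiers (UMIs) mark single molecules. Cutadapt and the build GRCh38 come from the submitters' processing notes; the sources used here name no aligner, annotation or counting program. Reads matching several of these low-complexity names could have been split or dropped. Cell files held 2656 names and exosome files 2580; the 76 others, at most 20 counts in a cell library, were taken as 0 in exosomes.

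Each comparison was fitted to its 6 libraries, over all names, with edgeR 4.0.16 in R 4.3.3 (filterByExpr, TMM, quasi-likelihood F-test, two-sided, Benjamini-Hochberg adjustment, threshold 0.05), and the interaction to all 12. Every adjusted p comes from that test. CPM uses library totals. Sequences, composition and annotation come from RefSeq (GRCh38.p14) and GENCODE release 29. The fits were also run on simulated counts in which a minority of names changed, unlike exosomes over cells, where most names passed. No result here rests on that run. Members and lists were chosen with earlier results of these data known. All 9 members are named; of the related list, the 3 largest changes each way past the threshold; of likeness, the 3 highest coefficients. Other names were added after their values were seen, for a shared seed, a place in an annotated ribosomal precursor or an overlapping hairpin. Alternatives were RLE size factors, library totals, a table without miR-552-3p and miR-3972, DESeq2 1.42.0, limma-voom (limma 3.58.1), other count filters, a replicate block, all 12 libraries in 1 fit, and each library left out. Floors and totals cover counting error only.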

Additional observations from a re-analysis of the deposited data

Results flagged for a closer look

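Results for 7 members stood out because the Ang effect differed between exosomes and cells by a test of the difference itself (edgeR interaction over 12 libraries, adjusted over 1835 names). The exosome log2 change less the cell log2 change was -0.92 for miR-3960 (adjusted p = 4.52e-05), -0.97 for miR-3648 (adjusted p = 6.26e-05), -0.60 for miR-4488 (adjusted p = 0.00139), -0.80 for miR-10400-5p (adjusted p = 1.27e-05) and -1.23 for miR-10400-3p (adjusted p = 4.67e-06). It was 0.38 for miR-4516 (adjusted p = 0.0436) and 0.41 for miR-7704 (adjusted p = 0.0361). The 5 negative differences passed under all 20 alternatives. That of miR-4516 lost its call under 11 of 20 alternatives and that of miR-7704 under 13 of 20, with the sign kept in each.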

How the results depend on the processing

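For Ang over Con in exosomes, the 8 member calls kept their direction and passed under 15 alternatives, and 8 members were called in each fit with a library left out. Over all names, leaving out a library gave 312 to 422 calls in exosomes, 38 to 97 in cells (107 with all 6 libraries), 1300 to 1417 for exosomes over cells in Ang, 1346 to 1479 in Con and 218 to 286 for the interaction. In cells the calls numbered 70 without Ang replicate 1 and 38 without Con replicate 2 or 3; members called there numbered 0 to 1 with a library left out and 0 with all 12 libraries in 1 fit. Uncalled cell changes near 0 turned sign. miR-3960 came to 0.0059 with library totals, and in the fit of 12 libraries miR-4516 came to -0.012 and miR-663a to -0.013. With a library left out, miR-3960 ran from -0.095 to 0.069, miR-4497 from -0.131 to 0.057, miR-4516 from -0.050 to 0.120, miR-663a from -0.0074 to 0.063 and miR-10400-3p from -0.132 to 0.019. For exosomes over cells in Ang, library totals turned miR-10400-5p to -0.57 and miR-10400-3p to -0.92, since that scale moves the median of all names by -1.89. The interaction of miR-663a (-0.01) came to 0.10 with RLE size factors and with DESeq2, 0.020 without a count filter, -0.048 to 0.081 with a library left out, and passed with library totals at -0.33 (adjusted p = 0.019). That of miR-4497 passed with RLE size factors (0.72, adjusted p = 0.0359) and DESeq2. Except for library totals, the cause was not tested. Whether replicate numbers pair the libraries was not settled. Deviations of same-numbered libraries correlated at 0.236, 0.235 and -0.165 in exosomes, where those of different-numbered ones ran from -0.424 to 0.312. In cells same-numbered libraries gave -0.020 to 0.054 and different-numbered ones -0.0404 to 0.0465. With 3 libraries a group, such values cannot show that pairing was absent. With the replicate block 5 members passed the interaction, since miR-4516 (0.38, adjusted p = 0.0529) and miR-7704 (0.41, adjusted p = 0.0506) did not. Depth limits miR-4497 in cells, at 16 to 25 counts a library.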
